A study of Rattus norvegicus with 16 samples.

Results

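Transcripts of 10 heat shock proteins and chaperones were followed in whole blood of 16 rats that had received saline. The members were Hspa8, Hspa4, Hsph1, Dnajb1, Hsp90aa1, Hsp90ab1, Hspa5, Hspd1, Hspe1 and Hspb1, taken by gene symbol from the count files. They are 10 of 26405 genes listed in at least 1 file and of 18031 genes listed in every file. Apart from the choice of entry for Hspa8, no measured value entered the rule. The members were nevertheless chosen with earlier results of these data known. All 10 were listed in all 16 libraries and passed the filter on low counts. Hspa8 had 2 entries, of which the one with 98.8% of its counts was used.

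The study asked how stable RNA-seq profiles of blood are over repeated experiments. All 16 libraries carried the label saline control, so the design held 1 group and no treated group was compared. The animals were male Sprague-Dawley rats aged 85 to 90 days that received 4 injections of saline at 1 ml/kg, spaced 2 h apart, and were sacrificed 3 h after the last. They had neither food nor water during dosing, body temperature was taken hourly, and blood was drawn through the heart. The labels describe further arms in cool and hot surroundings of the animals, and no library labelled as such was analysed here. Body temperatures were not analysed here. Globin mRNA was depleted before stranded, polyadenylated libraries were sequenced through 51 bases from both ends. A run code in the file names was treated as a batch, and the labels do not say what it stands for. The study repeated its experiment at several dates, and the labels do not assign animals to them. Differences between run codes and between groups of animals dosed at different dates therefore cannot be told apart. Controls 1 to 3 came from run A and controls 4, 5, 7, 8 and 10 from run B. Controls 6 and 9 (run C), 11 to 14 (run D), 15 (run E) and 16 (run F) made up the rest.

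Heat shock proteins are chaperones that bind unfolded or partly folded proteins and help them fold, assemble or be degraded. Cytosolic Hsp70 proteins work in cycles of ATP hydrolysis with J-domain partners and nucleotide exchange factors and pass clients on to Hsp90, while Hsp60 and Hsp10 form a folding chamber in mitochondria and BiP serves the endoplasmic reticulum. Some members are made constitutively, and others are raised by heat shock factor 1, which binds heat shock elements in promoters when unfolded protein accumulates. Genes for chaperones of the endoplasmic reticulum answer to a separate response, which acts through the endoplasmic reticulum stress element.

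The promoters are shown as background, and whether their elements bear on levels in these libraries was not tested. RefSeq sequence of the build GRCr8, from 250 bases before to 50 bases after the start, was found for 9 of 10 members. Hsp90aa1 had no entry. The counts rest on another build, rn5, so these positions are not those of the count files. A heat shock element was searched as 2 units (GAANNTTC or TTCNNGAA) and as 3 units (GAANNTTCNNGAA or TTCNNGAANNTTC), on both strands. The 3-unit form contains the 2-unit form, and neighbouring matches overlap. The 2-unit form lay in 15.85% and the 3-unit form in 0.7978% of 33469 promoters. Among the 9 members, 6 held the 2-unit form and 4 held the 3-unit form. The windows of Hspa8, Hsph1, Hspd1 and Hspe1 held both, and those of Hspb1 and Dnajb1 held the 2-unit form alone. The endoplasmic reticulum stress element (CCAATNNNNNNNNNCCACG, either strand) lay in 22 promoters, or 0.06573%, and Hspa5 was the member that held it. Neither form of heat shock element nor the stress element was matched in the windows of Hspa4 and Hsp90ab1. A match is a run of letters and not a measured binding site.

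The 250 bases before the start are given for 5 members in the direction of transcription, with matches in capitals. They lie at chr8:50080264-50080513 on the plus strand for Hspa8, chr12:10427118-10427367 on the plus strand for Hsph1, chr19:41431142-41431391 on the minus strand for Dnajb1, chr9:64084077-64084326 on the plus strand for Hspe1 and chr3:38452766-38453015 on the plus strand for Hspa5.
Hspa8: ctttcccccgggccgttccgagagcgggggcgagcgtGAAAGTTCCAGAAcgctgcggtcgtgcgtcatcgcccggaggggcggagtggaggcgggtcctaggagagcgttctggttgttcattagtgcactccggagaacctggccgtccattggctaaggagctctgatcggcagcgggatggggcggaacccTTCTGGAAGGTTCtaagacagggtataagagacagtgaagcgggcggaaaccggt
Hsph1: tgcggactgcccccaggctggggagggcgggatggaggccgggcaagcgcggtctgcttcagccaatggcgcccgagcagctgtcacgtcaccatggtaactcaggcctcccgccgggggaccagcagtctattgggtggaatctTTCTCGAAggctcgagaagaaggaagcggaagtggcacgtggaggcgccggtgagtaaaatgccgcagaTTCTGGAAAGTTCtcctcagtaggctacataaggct
Dnajb1: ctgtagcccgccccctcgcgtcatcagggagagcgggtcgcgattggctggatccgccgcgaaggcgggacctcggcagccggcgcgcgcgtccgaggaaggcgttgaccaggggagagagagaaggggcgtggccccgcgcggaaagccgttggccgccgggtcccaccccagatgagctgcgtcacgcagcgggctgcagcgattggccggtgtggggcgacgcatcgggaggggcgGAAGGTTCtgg
Hspe1: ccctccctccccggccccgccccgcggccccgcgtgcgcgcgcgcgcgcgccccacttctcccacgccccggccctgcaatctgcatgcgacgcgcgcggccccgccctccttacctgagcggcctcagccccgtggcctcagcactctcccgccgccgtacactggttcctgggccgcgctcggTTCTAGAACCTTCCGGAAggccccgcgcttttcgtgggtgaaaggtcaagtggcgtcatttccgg
Hspa5: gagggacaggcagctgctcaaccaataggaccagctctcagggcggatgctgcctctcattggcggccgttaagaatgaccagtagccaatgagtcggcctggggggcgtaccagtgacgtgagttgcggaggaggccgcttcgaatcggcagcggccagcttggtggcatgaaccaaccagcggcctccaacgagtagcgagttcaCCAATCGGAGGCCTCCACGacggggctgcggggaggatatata

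Hspa8 had its elements at -213 to -201 and -55 to -43 relative to the start, Hsph1 its 3-unit element at -36 to -24, and Hspa5 its stress element at -43 to -25. Dnajb1 had a 2-unit element at -11 to -4 and another after the start, at 18 to 25. Hspd1 and Hspe1, which encode the mitochondrial chaperonin and its lid, start 290 bases apart on opposite strands. Their windows shared 211 bases, chr9:64084077-64084287, and the same 3 overlapping 2-unit elements lay in that stretch.

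The libraries held 21466776 to 31189549 estimated counts and 14736 to 16144 genes with at least 1 count. Levels below are these counts divided by DESeq2 size factors, called normalized counts, which are not per length and so are compared between libraries and not between genes. No pair of libraries agreed within counting noise. Transcripts that mark T cells, B cells, neutrophils, reticulocytes and platelets were counted in every library for 22 of the 22 listed genes, and 5 of 6 monocyte markers were. Control 2 stood apart by its liver transcripts, with a sum of 428162 normalized counts against a median of 41.5 (controls 8 and 7 followed at 19048 and 4299), control 12 by thymocyte (5770 against 33.4) and fat transcripts (7188 against 1157), and control 10 by cardiac muscle transcripts (534 against 19.4). In bulk blood, fewer cells of a type and less RNA per cell cannot be told apart.

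Hspa8 (ENSRNOG00000009920), the constitutive cytosolic Hsp70, ranged from 8699 normalized counts in control 6 over a median of 12534 to 23340 in control 8, with a mean of 13688 ± 4478 (SD, n = 16). Controls 7 and 8 were nearly level at the top, with 23190 in control 7, and control 14 followed at 17412. The coefficient of variation (CV, the SD as a percentage of the mean) was 32.7%, and 21.5% without controls 7 and 8.

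Hspa4 (ENSRNOG00000016596), an Hsp110-type nucleotide exchange factor for Hsp70, ranged from 1968 in control 10 over a median of 2524 to 2981 in control 6, with a mean of 2502 ± 288 (SD, n = 16). Its CV of 11.5% was the 96th lowest of 2449 genes with a mean of at least 1000 normalized counts, whose median CV was 29.7%. It was the lowest CV of the members on these size factors. Scaled to total counts instead, it was 22.6%, above the 22.0% of Hsp90ab1.

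Hsph1 (ENSRNOG00000000902), another Hsp110 protein and one that is heat inducible, ranged from 340 in control 15 over a median of 592 to 1649 in control 7, with a mean of 653 ± 310 (SD, n = 16). Control 7 stood alone, since the next library, control 2, held 975. Its CV was 47.5% and fell to 28.3% without control 7.

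Dnajb1 (ENSRNOG00000021824), the inducible Hsp40 that delivers clients to Hsp70, ranged from 675 in control 6 over a median of 815 to 1601 in control 7, with a mean of 872 ± 221 (SD, n = 16). The next library, control 8, held 1044. Without control 7 its CV went from 25.4% to 13.3%.

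Hsp90aa1 (ENSRNOG00000007219), the inducible cytosolic Hsp90, varied more than 91.9% of those 2449 genes, with a CV of 62.2%. It ranged from 1945 in control 4 over a median of 3644 to 12492 in control 7, with a mean of 4058 ± 2523 (SD, n = 16). Control 8 followed at 6762, and the CV was 33.9% without control 7 and 24.3% without both.

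Hsp90ab1 (ENSRNOG00000019834), the constitutive cytosolic Hsp90, ranged from 7117 in control 9 over a median of 10073 to 13628 in control 7, with a mean of 10153 ± 1593 (SD, n = 16). The top of its range was close, with 12839 in control 14. Its CV of 15.7% was the 307th lowest of the 2449 genes. The log2 ratio of Hsp90aa1 to Hsp90ab1 ran from -2.42 in control 4 to -0.13 in control 7.

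Hspa5 (ENSRNOG00000018294), which encodes BiP, the Hsp70 of the endoplasmic reticulum, ranged from 1986 in control 4 over a median of 3270 to 8530 in control 8, with a mean of 3719 ± 1631 (SD, n = 16) and a CV of 43.8%. Control 14 followed at 5889, and control 7 was not raised to a like degree, at 0.429 times control 8.

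Hspd1 (ENSRNOG00000014525), the mitochondrial Hsp60, ranged from 981 in control 16 over a median of 1212 to 1921 in control 2, with a mean of 1299 ± 274 (SD, n = 16). Hspe1 (ENSRNOG00000014868), its Hsp10 lid, ranged from 388 in control 1 over a median of 552 to 822 in control 7, with a mean of 580 ± 138 (SD, n = 16). Controls 2 and 7 held the 2 highest values of both genes. Their CVs were 21.1% and 23.9%, below the median of 24.8% for 8672 genes whose mean reached 100.

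Hspb1 (ENSRNOG00000023546), the small heat shock protein Hsp27, was near the limit of what these libraries could show. It ranged from 0 in control 6 over a median of 5.80 to 23.5 in control 12, with a mean of 8.94 ± 7.95 (SD, n = 16). Counting error alone at its mean count would give a CV of 33.6%, and the observed CV was 88.9%. Controls 10 (21.8) and 2 (20.6) followed control 12 for Hspb1. Controls 12, 10 and 2 are the libraries set apart above by thymocyte and fat, cardiac muscle and liver transcripts. The part of such transcripts in the spread of Hspb1 was not tested. The count of 0 in control 6 allows up to 3 counts.

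**Figure D1:**
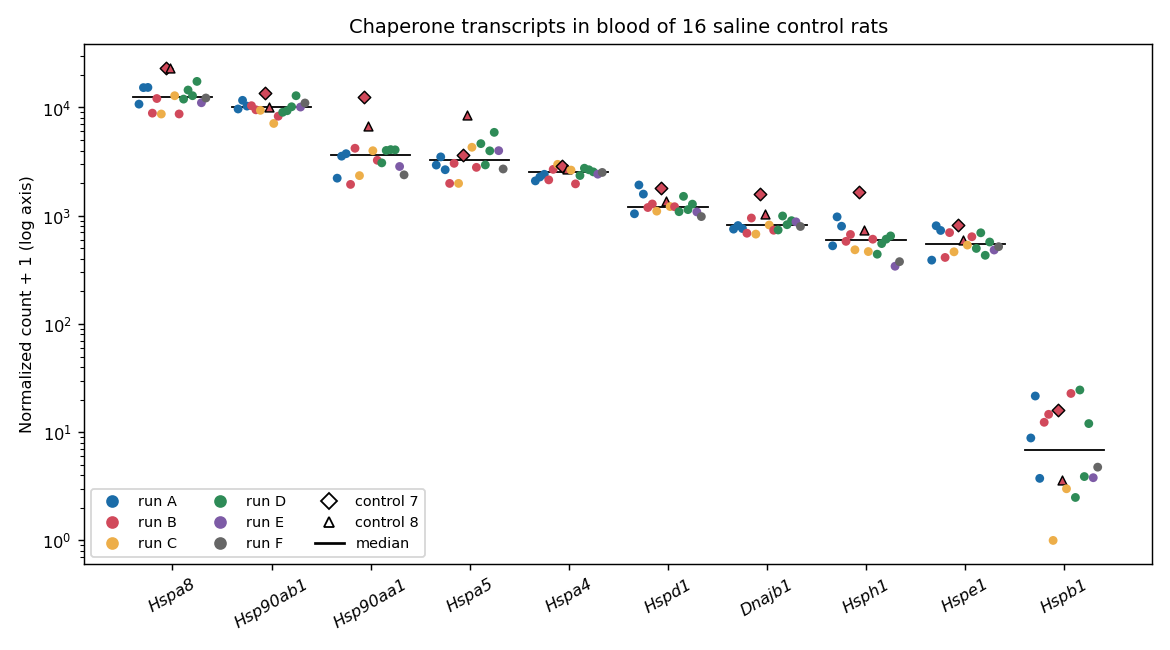
Normalized count plus 1 (log axis) of each member in each of the 16 saline controls, with 1 point per library coloured by run code, a diamond for control 7, a triangle for control 8 and a line at the median. Control 7 stands above the other libraries for Hsp90aa1 (12492), Hsph1 (1649) and Dnajb1 (1601), and control 8 for Hspa5 (8530).

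**Figure D2:**
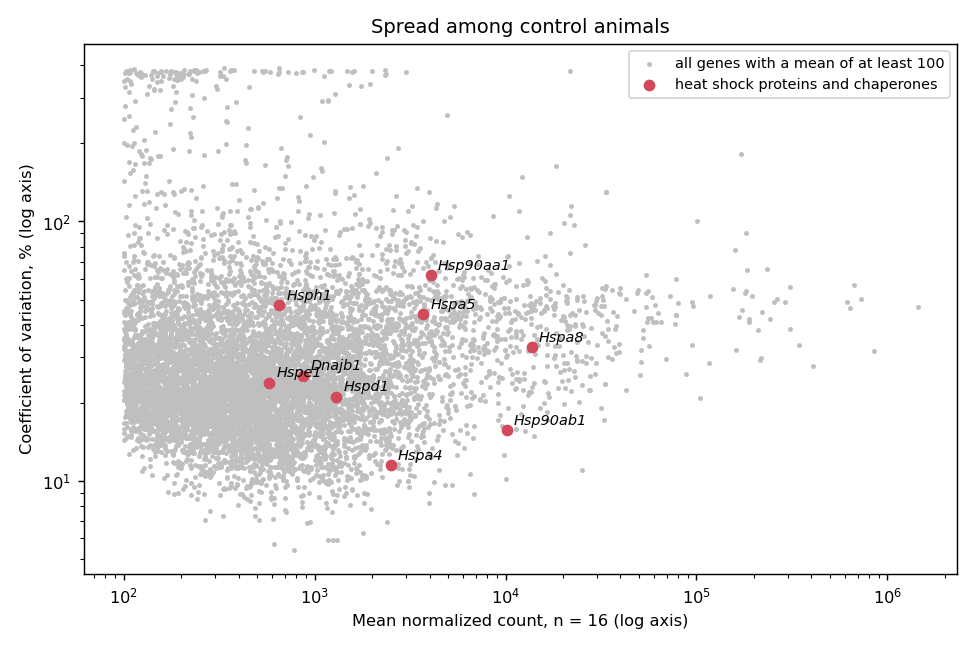
CV in percent against mean normalized count, both on log axes, for 8672 genes whose mean reached 100 (grey) and the 9 members among them (red). Hsp90aa1 lies high at 62.2% and Hspa4 low at 11.5%, and Hspb1 falls below the mean of 100 and is not plotted.

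Control 7 was the highest of the 16 libraries for Hsp90aa1, Hsp90ab1, Hsph1, Hspe1 and Dnajb1, or 5 of the 9 members with a mean of at least 100 normalized counts, against 3.52% of 8672 genes. Under total count scaling it was the highest for 2 members, Hsp90aa1 and Hsph1, against 0.309% of genes. With that scaling control 3 was the highest for 4 members, Hspa8, Hsp90ab1, Hspd1 and Hspe1, against 12.3% of genes. Control 12 was then the highest for 2 of the 9, Hspa4 and Dnajb1, against 18.6% of genes. Among 69 other chaperone genes above that mean, 14.5% were highest in control 7, and 2.9% under total count scaling. A gap of 1.5 times or more to the next library was seen in control 7 for 10 genes, or 0.115%, and 3 were members: Hsp90aa1 at 1.85 times, Hsph1 at 1.69 times and Dnajb1 at 1.53 times. Dnaja1, another Hsp40, at 1.54 times and Chordc1, an Hsp90 cochaperone, were also among the 10. Cacybp, a binding partner of calcyclin, had 1.57 times. The others were Sh2d1b2, Serpini1, Dhx34 and Gcnt1. These genes outside the lists were picked by that gap after the values were seen.

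Scaling changed some of these gaps. On total counts, control 7 held 1.87 times the next library for Hsp90aa1 and 1.24 times for Hsph1, while Dnajb1 was at 0.969 times control 12 and Hsp90ab1 at 0.792 times control 3. Dnaja1 was then at 1.23 times control 15 and Chordc1 at 1.08 times control 12. Against the median of the other 15 libraries, Hsp90aa1 was 3.52 times higher in control 7 on DESeq2 size factors and 2.87 times on total counts.

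Hspa1b, the strongly inducible Hsp70 that was no member, had 2 entries with the same count in 16 of 16 libraries, so reads of near-identical copies were divided between them and its values are uncertain. In 1 entry it ranged from 8.83 normalized counts in control 12 over a median of 26.4 to 257 in control 7. Control 5 followed at 141 and control 10 at 77.8, all 3 from run B. Hspa1a was not listed, and Hspa1l had 2 counts over all libraries.

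Control 7 also had the highest sum over 4 platelet markers, 88653 normalized counts against a lowest of 6534 and a median of 48481, and the second highest sum over 4 neutrophil markers, 616947 in a range from 26186 to 990829. Its sums over 5 T cell and 5 B cell markers ranked 13th and 15th of 16. It ranked 3rd for liver markers, with 4299 against a median of 41.5, and 3rd for reticulocyte markers, with 557134 against a median of 334258. How the members went with leukocyte and reticulocyte markers over all libraries is given with the relations below, and the part of platelet and liver transcripts was not tested.

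**Figure D3:**
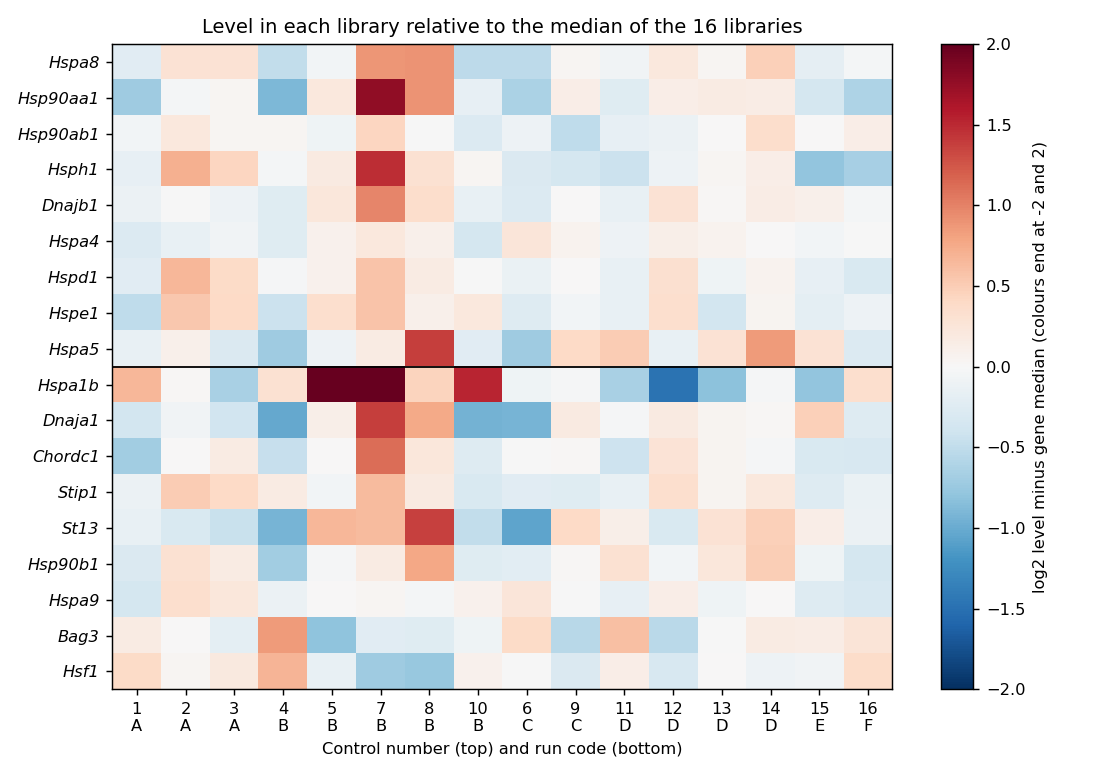
Log2 level of 9 members (above the line) and 9 further genes of the chaperone system (below it) in each library. Values are the difference from the gene's median over 16 libraries, with columns ordered by run code and colours ending at -2 and 2. Among others, control 7 is red for Hspa8, Hsp90aa1, Hsph1, Dnajb1, Hspa1b, Dnaja1 and Chordc1. Control 8 is red for Hspa5, Hspa8, Hsp90aa1 and St13, among others.

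Control 8 was the highest library for Hspa8 and Hspa5, 2 of 9 members, against 15.8% of genes. Under total count scaling it was the highest for Hspa5 alone, against 2.32% of genes, and control 3 was the highest for Hspa8. Under TMM scaling control 7 was the highest for Hspa8. Of the 18 other endoplasmic reticulum genes above a mean of 100, 12 were highest in control 8 and none in control 7. Under TMM scaling 9 of the 18 were highest in control 8, against 13.4% of genes. Under total count scaling 1 was, against 2.32% of genes, and 7 of the 18 were highest in control 11, against 2.2% of genes. The 12 on size factors included Hsp90b1, the Hsp90 of that compartment, with 5275 in control 8 and 4350 in control 14. Control 8 also had the highest sums over monocyte markers, 34792 against a median of 9055, and neutrophil markers, 990829 against a median of 177385, and the lowest sums over T cell and B cell markers. Its sum over 6 liver markers was second highest, 19048 against a median of 41.5.

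Across the 16 libraries, 10 pairs of chaperones were compared on the scale log2(normalized count + 1), and 7 had an adjusted p under 0.05 (2-sided permutation test, 100000 resamples, Benjamini-Hochberg over 10 pairs). All levels in a library share its scaling and cell makeup, and the share of all gene pairs that would pass was not tested. Genes outside the chaperone lists reached a higher r, with 0.96 for Ctsc with Hspa5 and 0.97 for Ppia with Hspe1. The members and pairs were chosen with earlier results of these data known, which p-values here and for the markers below do not allow for. Hspd1 and Hspe1 moved together, with Pearson r = 0.85 (p = 3e-05, adjusted p = 0.00013) and Spearman rho = 0.85 (p = 5e-05). Without controls 2 and 7, the 2 libraries farthest from the median of Hspd1, r was 0.77 (p = 0.0015), and within run codes, over the 14 libraries of runs with at least 2, it was 0.88. The SD of their log2 ratio was 0.18, against 0.28 and 0.34 for the log2 levels of Hspd1 and Hspe1.

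Hspa5 and Hsp90b1, both of the endoplasmic reticulum, had r = 0.86 (p = 4e-05, adjusted p = 0.00013) and rho = 0.79 (p = 0.00045). Without controls 8 and 14, r was 0.73 (p = 0.003), and within run codes it was 0.89. Hsp90aa1 and Hspa8 had r = 0.85 (p = 2e-05, adjusted p = 0.00013) and rho = 0.78 (p = 0.00066), with r = 0.78 (p = 0.0013) without controls 4 and 7 and 0.91 within run codes. Dnajb1 and Hspa8 had r = 0.79 (p = 0.00016, adjusted p = 0.0004) and rho = 0.76 (p = 0.00092), with r = 0.64 (p = 0.015) without controls 7 and 8 and 0.85 within run codes. These 4 pairs kept an adjusted p under 0.05 without their 2 farthest libraries.

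The other 3 pairs past the threshold did not keep an adjusted p under 0.05 without their 2 farthest libraries. Hsp90aa1 and Hsph1 had r = 0.75 (p = 0.002, adjusted p = 0.0041) and rho = 0.64 (p = 0.009), but r was 0.48 (p = 0.067) without control 7 and 0.56 (adjusted p = 0.073) without controls 4 and 7. Dnajb1 and Hsph1 had r = 0.64 (p = 0.015, adjusted p = 0.022) and rho = 0.40 (p = 0.12), and r was 0.19 (p = 0.51) without control 7 and 0.06 (p = 0.83) without controls 7 and 8. Hspa5 and Hspa8 had r = 0.69 (p = 0.0032, adjusted p = 0.0054) and rho = 0.54 (p = 0.035). For this pair r was 0.47 (p = 0.091) without controls 8 and 14 and 0.78 (p = 0.00063) without control 7. Within run codes the 3 pairs had r = 0.84, 0.82 and 0.73, and on total counts 0.68, 0.57 and 0.71.

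Past the threshold were neither Hspa4 with Hspa8 (r = 0.47, p = 0.064, rho = 0.39), nor the 2 cytosolic Hsp90 genes, Hsp90aa1 with Hsp90ab1 (r = 0.36, p = 0.17, rho = 0.14), nor Hspb1 with Dnajb1 (r = 0.35, p = 0.19, rho = 0.28). Hspa4 with Hspa8 passed it on total counts (r = 0.59, p = 0.018) and within run codes (r = 0.73, p = 0.003). The p within run codes can be too small, since levels were centred on run means and then permuted across runs. For Hsp90aa1 with Hsp90ab1, r was -0.04 without control 7 and 0.44 within run codes. Without their 2 farthest libraries, the 3 pairs had r = 0.30, 0.02 and 0.18.

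**Figure D4:**
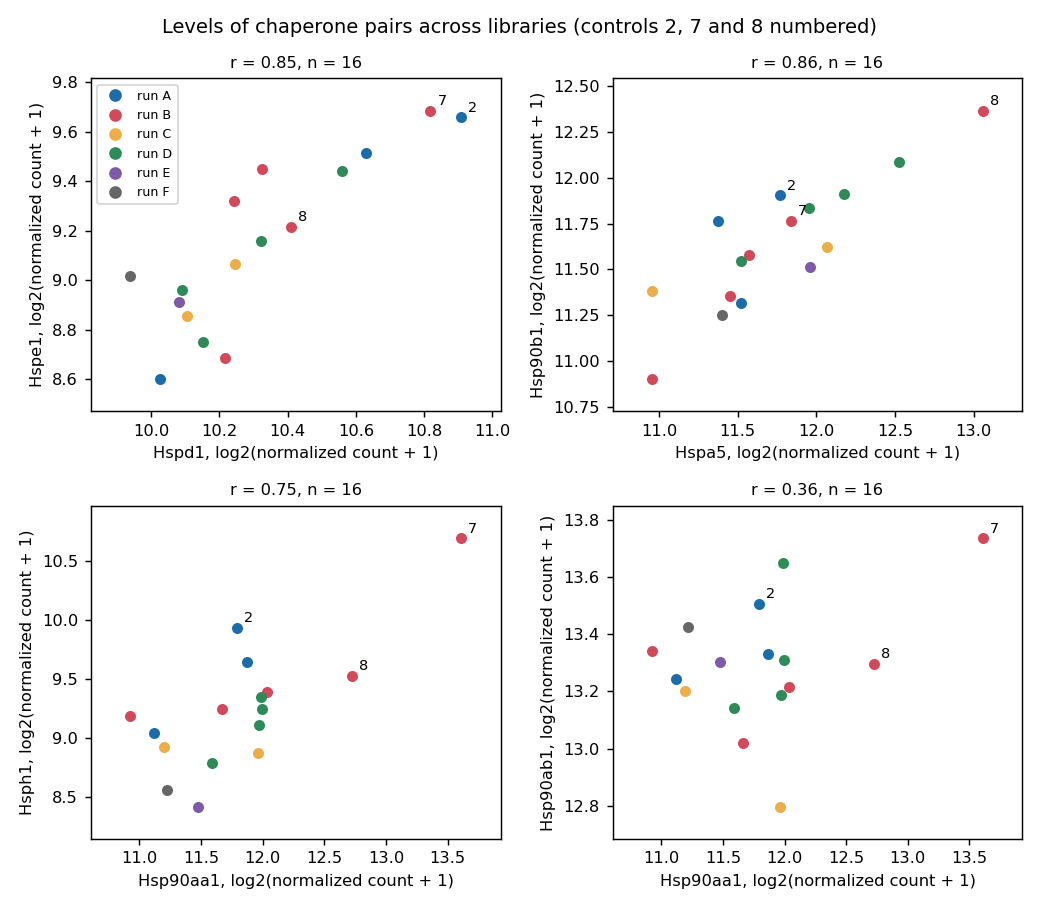
Log2(normalized count + 1) of 4 chaperone pairs in 16 libraries, 1 point per library coloured by run code, with controls 2, 7 and 8 numbered and Pearson r above each panel. Hspd1 with Hspe1 (r = 0.85) and Hspa5 with Hsp90b1 (r = 0.86) spread along a line, while control 7 lies far from the others for Hsp90aa1 with Hsph1 (r = 0.75) and with Hsp90ab1 (r = 0.36).

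The members were also compared with the mean log2 level of T cell, B cell, monocyte, neutrophil and reticulocyte markers, which gave 50 relations. Of these, 2 had an adjusted p under 0.05 over the 50, and both were of Hspa5. With the 4 neutrophil markers (Camp, Elane, S100a8 and S100a9) it had r = 0.87 (p = 2e-05, adjusted p = 0.00075). Its rho with them was 0.90 (p = 1e-05, the smallest these permutations can give). Without controls 8 and 14, r was 0.83 (p = 0.0003), and within run codes it was 0.88. With the 6 monocyte markers (Ccr1, Itgax, Cd14, Cd163, Cd68 and Nos2) it had r = 0.85 (p = 3e-05, adjusted p = 0.00075). Its rho with these was 0.86 (p = 7e-05), and r was 0.83 (p = 0.0003) without controls 8 and 14 and 0.83 within run codes. The neutrophil and monocyte relations were not tested apart from each other. S100a8 and S100a9 are not in the study's own neutrophil list, whose Mpo, Mme, Prtn3 and Ctsg were not used here. Before adjustment, Hsp90aa1 (r = 0.58, p = 0.014, rho = 0.61, p = 0.015), Dnajb1 (r = 0.58, p = 0.012, rho = 0.69, p = 0.0039) and Hspa8 (r = 0.56, p = 0.024, rho = 0.48, p = 0.065) also went with neutrophil markers, with adjusted p of 0.14, 0.14 and 0.17. Without their 2 farthest libraries these had r = 0.53, 0.52 and 0.32, within run codes 0.64, 0.55 and 0.70, and on total counts 0.54, 0.42 and 0.46. Hsph1 had r = 0.05 (p = 0.87, rho = 0.06) with neutrophil markers. Before adjustment, Hspa4 went against T cell markers (r = -0.51, p = 0.042). Hspa8 (r = -0.50, p = 0.048) and Dnajb1 (r = -0.52, p = 0.046) went against B cell markers. These negative relations each had an adjusted p of 0.24, and on total counts they had r = 0.51, 0.07 and 0.21. Within run codes Hspa5 also had r = -0.71 with T cell and -0.70 with B cell markers, each with an adjusted p of 0.047. That p can be too small, since levels were centred on run means and then permuted across runs. Over all 16 libraries r of Hspa5 with T cell and B cell markers was -0.58 and -0.62 (adjusted p = 0.15 and 0.14), and on total counts -0.09 and -0.10. On total counts Hspa5 kept its relations with neutrophil (r = 0.80, adjusted p = 0.0095) and monocyte markers (r = 0.88, adjusted p = 0.0025) and had r = -0.75 with reticulocyte markers (adjusted p = 0.018), which was -0.24 (adjusted p = 0.78) on size factors.

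The 3 genes most like each member were sought by Pearson r of log2 levels over the 16 libraries, among 8374 genes with a symbol and a mean of at least 100, as a description. For Hsp90aa1 they were Dnajb1 (r = 0.91), Chordc1 (0.90) and Cacybp (0.88), which had 0.79, 0.77 and 0.76 without control 7. For Dnajb1 they were Hsp90aa1 (0.91), Dnaja1 (0.89) and the kinase gene Clk1 (0.88). Hsph1 was most like Hspd1 (0.85), Mat2a (0.85) and the Hsp70-Hsp90 adaptor Stip1 (0.83), and Hspd1 most like Mrpl12 of the mitochondrial ribosome (0.90), Stip1 (0.87) and Hspe1 (0.85). Hspe1 had Ppia, which encodes cyclophilin A (0.97), and the cytosolic chaperonin subunits Cct8 (0.92) and Cct5 (0.92).

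Hspa5 was most like Ctsc, which encodes cathepsin C (0.96), Ndfip2 (0.94) and the peroxiredoxin gene Prdx5 (0.93). Hspa8 had Morf4l2 (0.88), Tmbim4 (0.87) and Sdf2 (0.87), and Hspa4 had Ccng2 (0.89), SERBP1 (0.85) and Uba6 (0.84). Likeness was lower for Hsp90ab1, with the Hsp90 cochaperone Fkbp4 (0.75), Xk (0.72) and Brms1 (0.71), and for Hspb1, with Mrps18a (0.76), Timmdc1 (0.73) and RGD1305689 (0.73).

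No member passed the test between the runs with at least 3 libraries. In edgeR's quasi-likelihood fit over 12 libraries (runs A, B and D), 0 of 10 members were called (Benjamini-Hochberg adjusted p under 0.05 over 12952 genes) in any of the 3 comparisons, where the share of all genes called was 0% for A with B, 0% for A with D and 2.3% for B with D (0.0386% higher and 2.26% lower in run D). At an unadjusted p under 0.05 the members again numbered 0 in each, against 13.6%, 5.41% and 11.3% of genes, and DESeq2 and limma-voom called 0 of 10 as well. For no member did the values of 2 runs fail to overlap, which was the case for 6.37%, 7.08% and 5.96% of genes.

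The largest member difference between runs A and B was that of Hsp90aa1, 0.85 ± 0.49 (log2 fold change ± SE, higher in run B, adjusted p = 0.48), with means of 3170 and 5729 normalized counts. Without control 7 it was 0.32. From run B to run D, Hsp90aa1 had -0.58 ± 0.44 (adjusted p = 0.83) and Hsph1 -0.59 ± 0.32 (adjusted p = 0.61). Without control 7 these were -0.061 and -0.18, and under total count scaling -0.0072 and -0.065. Between runs A and D the members lay between -0.45 for Hsph1 and 0.53 for Hspa5. Hspa4 and Hsp90ab1 had differences between -0.04 and 0.18 in all 3 comparisons. The median over the members was 0.13, 0.00 and -0.16 for A to B, A to D and B to D, beside -0.03, -0.01 and 0.04 over all genes.

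Hspa1b was lower in run D than in run B by a log2 fold change of -2.73 ± 0.65, with means of 16.4 and 109 normalized counts, and the values did not overlap. Its adjusted p was 0.053 in edgeR, which is not past the threshold, and ran from 0.00027 in DESeq2 to 0.18 under total count scaling over the alternatives. Leaving out single libraries gave values from -3.02 to -2.12 and brought the adjusted p under 0.05 without control 4 or control 8. The reads of its near-identical copies limit this value as well.

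**Figure D5:**
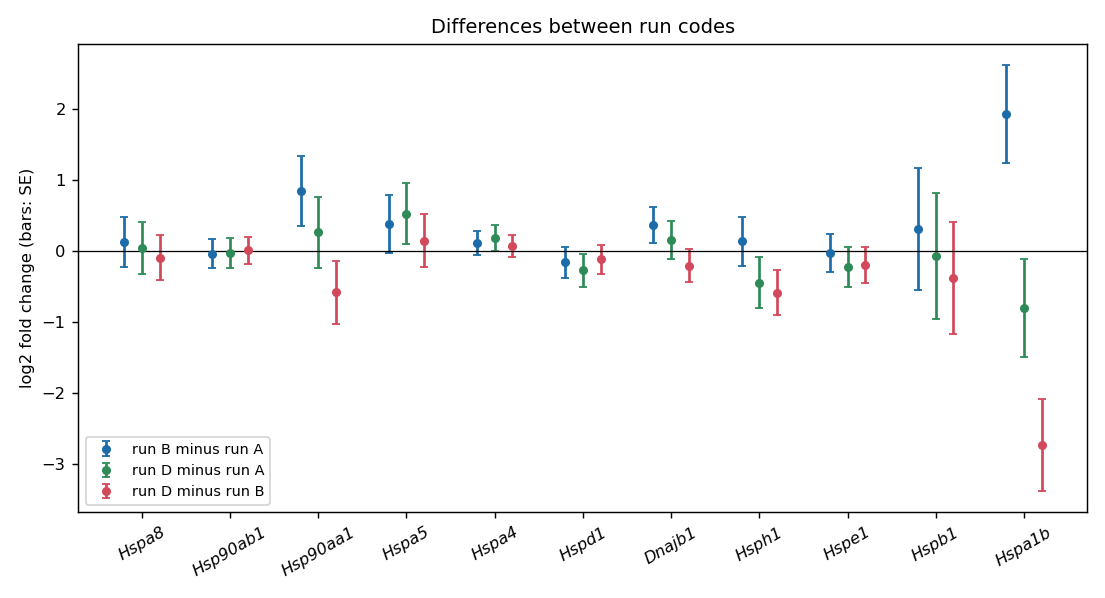
Log2 fold change between run codes from edgeR's fit over 12 libraries (points, bars are 1 SE) for the 10 members and Hspa1b, in 3 comparisons. The bars of Hspb1 are the widest of the members, and Hspa1b at -2.73 from run B to run D lies outside the range of the members.

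Of 88 other genes of the chaperone system, 84 were listed in every file and 80 were tested. Of these, 1 was called, Hscb, a mitochondrial J-domain protein for iron-sulphur cluster assembly, which fell from run B to run D by a log2 fold change of -1.33 ± 0.25 (adjusted p = 0.027). The call was lost without control 5, 10, 11, 12, 13 or 14, each left out alone, with log2 fold changes from -1.38 to -1.18 and edgeR adjusted p from 0.057 to 0.12, and under total count scaling (-0.77, adjusted p = 0.18). That is 1.25% of the 80, beside 2.3% of all genes. Unadjusted p values under 0.05 numbered 11 (13.8%) for A with B, 1 (1.25%) for A with D and 12 (15%) for B with D, beside 13.6%, 5.41% and 11.3% of all genes.

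The other Hsp70 and Hsp40 genes had a median CV of 22.6% among the 15 with a mean of at least 100. Dnajb2, a J-domain protein, had 9999 ± 3509 normalized counts (SD, n = 16). Dnaja1, a cytosolic Hsp40, ranged from 1300 in control 4 over a median of 2634 to 6845 in control 7. St13, an Hsp70 cochaperone, ranged from 888 in control 6 over a median of 1859 to 4755 in control 8. Bag3, an exchange factor raised by heat shock in many cells, ranged from 89.2 in control 5 over a median of 156 to 282 in control 4, and was below its median in control 7.

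Among 12 Hsp90 cochaperones the median CV was 21.4%, and Ptges3, the Hsp90 cochaperone p23, had 2105 ± 370 (SD, n = 16). Stip1 ranged from 635 in control 10 over a median of 782 to 1211 in control 7, with 1117 in control 2. Fkbp5, a cochaperone of steroid receptors that glucocorticoids induce, had the highest CV of that list, 46.8%, and its top library was control 15 with 2400 over a median of 877. The cytosolic chaperonin and prefoldin genes had a median CV of 19.1% and the prefoldin subunit Vbp1 had 5209 ± 2689 (SD, n = 16).

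The endoplasmic reticulum genes had a median CV of 28.7%, from 12.3% for Canx to 89.8% for Xbp1, and the lectin chaperone Calr had 23795 ± 6861 (SD, n = 16). The mitochondrial genes had 20.5%. In that list Hspa9, the mitochondrial Hsp70, was steady at 786 ± 108 (SD, n = 16), a CV of 13.7%, and Hscb had 3552 ± 1938. None of the 6 other small heat shock protein genes reached a mean of 100. Hspb6 had 75.1 ± 22.1 (SD, n = 16), and Cryab, the alpha B-crystallin gene, had 63.8 in control 10 over a median of 4.88. Controls 2 (17.9) and 12 (15.4) followed for Cryab.

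The heat shock factors did not follow the inducible members to the top of their range in control 7. Hsf1 ranged from 226 in control 8 over a median of 380 to 611 in control 4, and its level in control 7 was below its median. Hsf2 ranged from 35.1 in control 4 over a median of 62.7 to 115 in control 2. Hsbp1, a heat shock factor binding protein, had 1545 ± 445 (SD, n = 16). Transcript levels of a factor do not give its activity.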

How the data were processed

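Per the labels and the study's methods, blood RNA of 16 saline controls was sequenced, base calls were made with CASAVA 1.8.2, and reads were aligned with Bowtie 0.12.9 to Ensembl transcripts (build rn5). The authors deposited estimated counts per gene from RSEM 1.2.0, which splits reads that match more than 1 transcript, so members with processed pseudogenes or close copies (Hspa8, Hsp90aa1, Hsp90ab1, Hspd1, Hspe1) are uncertain to that degree. Values that were not whole (19.3% to 27.1% per library) were rounded before the tests. The study's replacement of outlying values was not applied.

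Genes listed in every file were used. Levels were divided by DESeq2 1.42.0 size factors, with a pseudocount of 1 on the log2 scale. Runs with at least 3 libraries (A, B and D) were compared with edgeR 4.0.16 (TMM, filterByExpr, quasi-likelihood F-test, Benjamini-Hochberg over 12952 genes), tested on simulated data. Relations used permutation tests with 100000 resamples (numpy 2.4.6). Alternatives were limma-voom (limma 3.58.1), DESeq2, other scalings and filters, and libraries left out. Samples were grouped by their label, and each label names its own animal. P-values measure the spread between these animals and libraries.

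Named genes were the 10 members, 13 relatives, the called genes and the gene of most normalized counts (not per length) in each chaperone list, and the 3 genes most like each member. The members, pairs and lists were chosen with earlier results of these data known. Marker lists for T cells, B cells, monocytes, neutrophils, reticulocytes, platelets, liver, cardiac muscle, fat and thymocytes were summed. The smallest count taken as detectable was 3, or 0.0962 to 0.14 CPM, which covers counting error only.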

Additional observations from a re-analysis of the deposited data

Results flagged for a closer look

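Within runs B (n = 5) and D (n = 4), the highest and lowest libraries of each member and its named relatives were compared with the nearest other library, in 44 comparisons. By chance about 1 in 20, or 2.2, would stand apart by Dixon's 95% critical value, and 7 did. The 2.2 holds for independent comparisons of normally distributed values. Levels of several of these genes moved together across libraries, so no excess over chance can be read from the 7. In run B, control 8 was far above the rest for Hspa5 (8530 normalized counts, nearest 3657). Control 7 was far above for Hsph1 (1649, nearest 735) and Hspd1 (1805, nearest 1359). Control 10 was far above for Cryab (63.8, nearest 6.19), and control 4 far below for Hsf2 (35.1, nearest 62.2). In run D, control 11 was far below for Hsp90aa1 (3076, nearest 4006) and control 12 far above for Hsf2 (108, nearest 64.6). The causes were not tested.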

How the results depend on the processing

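The number of members called stayed at 0 in the 3 run comparisons under every setting tried. The share of tested genes that were called moved more. For run A against run B it was 0%, with 4.35% by DESeq2, 0.054% by limma-voom, 0.0078% without controls 2, 8 and 12, and 0% to 3.93% with single libraries left out (3.93% without control 4, 0.0075% without control 1 and 0.0076% without control 2). For run A against run D it was 0%, with 0.108% by DESeq2 and 0% to 0.015% with single libraries left out (0.015% without control 1, 0.0076% without control 2 and 0.0078% without control 7). For run B against run D it was 2.3%, 298 genes of which 5 were higher and 293 lower in run D. There it was 0.0463% (6 genes, all lower) under total count scaling, 5.73% (742 genes, 30 higher) by DESeq2, 1.16% (207 genes) with no filter on low counts, 1.36% (167 genes) with only both runs fitted, 0.0858% (11 genes) without controls 2, 8 and 12, and 0.0155% to 5.44% with single libraries left out. It was 5.44% without control 4, 1.53% without control 2 or 3, 0.737% without control 7, 0.457% without control 10, 0.211% without control 12, 0.0233% without control 5, 0.0232% without control 13, 0.0156% without control 11 and 0.0155% without control 14. Total count scaling moved the median log2 fold change of all genes from run B to run D to 0.53, from 0.04, and turned members to 0.44 for Hspa8, 0.40 for Hspd1, 0.36 for Hspe1, 0.19 for Hspb1 and 0.33 for Dnajb1, none above that median. From run B to run D, Hsp90ab1 turned to -0.0072 with DESeq2 size factors and -0.0073 by DESeq2, and Hspa8 to 0.038 by limma-voom and 0.10 without controls 2, 8 and 12. With single libraries left out, ranges crossed 0 for Hspa8 (-0.24 to 0.12), Hspa5 (-0.043 to 0.61), Hspa4 (-0.0071 to 0.14), Hsp90ab1 (-0.11 to 0.14), Hspd1 (-0.20 to 0.013) and Dnajb1 (-0.32 to 0.038). The 7 pairs past the threshold became 4 without their 2 farthest libraries, and Hsp90aa1 with Hsp90ab1 turned to r = -0.036 without control 7, a setting chosen after seeing the data. The 2 relations with marker sets became 4 within run codes, where p-values can be too small. The 5 of 9 members highest in control 7 became 2 of 9 under total count scaling, against 0.309% of genes. Under TMM scaling they became 6 of 9, against 4.46% of genes. Among genes with a mean of at least 1000 they were 2 of 6, against 3.35% of genes. Hsph1, Hspe1 and Dnajb1 lie below that mean. All of these counts were also made after seeing the data. Leaving out controls 7 and 8 together was likewise chosen after seeing the data. The causes were not tested. No paired analysis was possible because all samples belong to 1 group. Depth limits Hspb1, with a mean of 8.88 counts, while the other members had means of at least 594 counts.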
